A study of Danio rerio with 2 samples.

Results

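Genes of glucose production and glycogen turnover were examined in the livers of zebrafish larvae, in 1 library from man1a2 morphants and 1 library from controls. They are the enzymes of gluconeogenesis (pck1, pck2, fbp1a, fbp1b, g6pca.1, g6pca.2 and pcxb), the coactivator gene ppargc1a, and the liver glycogen phosphorylase and synthase genes pygl and gys2. These 10 symbols were chosen by name, as genes of the pathway and with earlier results of these data known, from the 31953 gene IDs of the count tables. Of the 10, 7 carried their symbol in the name table and g6pca.1 was found as g6pc1a.1, a name that RefSeq lists as its synonym, so 8 had 1 ID each. The name table gives zebrafish paralogs the symbol of the human gene, and pcxb and g6pca.2 could not be matched to 1 ID. They may be among the 2 IDs under PC (pyruvate carboxylase) and the 2 IDs under G6PC1 (glucose-6-phosphatase), or among IDs without a symbol. The PC and G6PC1 IDs are given beside the 8 genes and are not counted with them.

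Morphants had been injected at the one-cell stage with an antisense morpholino oligonucleotide against man1a2, a gene for a Golgi mannosidase that trims N-linked glycans, and controls were not injected. Livers were taken at 5 days post fertilization, and RNA from 3 batches of larvae was pooled into 1 library per group. The labels name 2 morpholinos and several transgenic lines but do not say which of them the sequenced pools came from, nor at what dose. The morpholinos are shown as the agents that set the groups apart, with the reverse complement of the start codon in capitals.
man1a2-ATG MO: ccggcgtggtCATattttgatgatc
man1a2-splicing MO: aagaatgtaaactcacctctctgat

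Because each group was 1 pool, the differences have no replicate check, and every interval and p-value below covers counting error only. An exact binomial test was run on every gene whose 2 read counts summed to 10 or more, with Benjamini-Hochberg adjustment over all 15732 genes tested. Passing this read test required an adjusted p below 0.05 together with at least a 1.2-fold difference. The test compares 2 libraries and not 2 conditions. The morphant library held 19783886 reads and the control library 19658335. Of the targeted gene, man1a2, the morphant library held 195 reads and the control library 193 (log2 ratio -0.09, 95% interval -0.39 to 0.20). No fall of its RNA was thus detectable. A morpholino that blocks translation need not change that count, but which morpholino these pools had is not known. Knockdown in these libraries was not tested here. Liver markers were abundant in both libraries, at 20.5% of morphant and 21.5% of control reads for 20 hepatocyte symbols. Of their 21 tested IDs, 7 were past the test and lower in the morphant library and 1 higher, with a median log2 ratio of -0.13. Exocrine pancreas markers were higher in the morphant library (11 of 11 tested IDs past the test, 8385 against 594 reads over 12 IDs), as were 5 of 8 epidermis markers. Lower were 6 of 9 tested leukocyte IDs (474 against 3156 reads over 11 IDs) and 4 of 5 tested erythroid IDs. Of all genes tested, 12.5% were past the test and higher and 12.6% lower. Most control reads of the leukocyte markers came from 1 ID under MFAP4 (226 morphant and 2573 control reads). The part of these cell types in the results below was not tested, and in pooled tissue a change in the number of cells of a type cannot be told apart from a change in RNA per cell.

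In gluconeogenesis the liver makes glucose from lactate, amino acids and glycerol, by running glycolysis backwards except at its irreversible steps. Those steps are bypassed by pyruvate carboxylase, phosphoenolpyruvate (PEP) carboxykinase, fructose-1,6-bisphosphatase and glucose-6-phosphatase. Glycogen phosphorylase and glycogen synthase release and store glucose units. In vertebrates the pathway is raised in fasting by glucagon and glucocorticoids and lowered after feeding by insulin, largely through transcription of the PEP carboxykinase and glucose-6-phosphatase genes.

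Differences among the 8 genes were small, and those past the read test were all lower in the morphant library. The read test was passed by 4 of them, fbp1b, g6pca.1, ppargc1a and pck2, against 25.1% of all genes tested (12.6% lower and 12.5% higher). The median log2 ratio of the 8 was -0.24, with 5 below 0 and 3 above, against a median of 0.014 over the 14241 genes whose normalized count averaged 10 or higher, of which 48.6% were below 0. None of the 8 differed by 2-fold, which 7.44% of all genes did. With no minimum fold, 7 of the 8 had an adjusted p under 0.05 in the exact binomial test, against 4978 of all 15732 genes tested. Of these 7, ppargc1a had few reads (100 morphant and 130 control). For pck1, pygl and gys2, whose read counts were high, it was the fold of under 1.2 that kept them from passing. In a test of counting error such depth brings small differences below the threshold, and genes with only 10 reads were tested too. The counts with no minimum fold, of the 8 and of all genes, were thus not taken at like depth. An assumed coefficient of variation of 0.1 between pools of 1 group left 0 of the 8 past the threshold in edgeR's exact test. The share of all genes past it was 6.37%. In that test 1 of the 8 had an unadjusted p under 0.05. The share of all genes at that unadjusted p was not computed, so this count has no baseline. The number past the threshold was also 0 at 0.2 (1.4% of all genes), at 0.4 (0.273%) and under a blind dispersion, which treats both libraries as 1 group (0.744%).

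**Figure D1:**
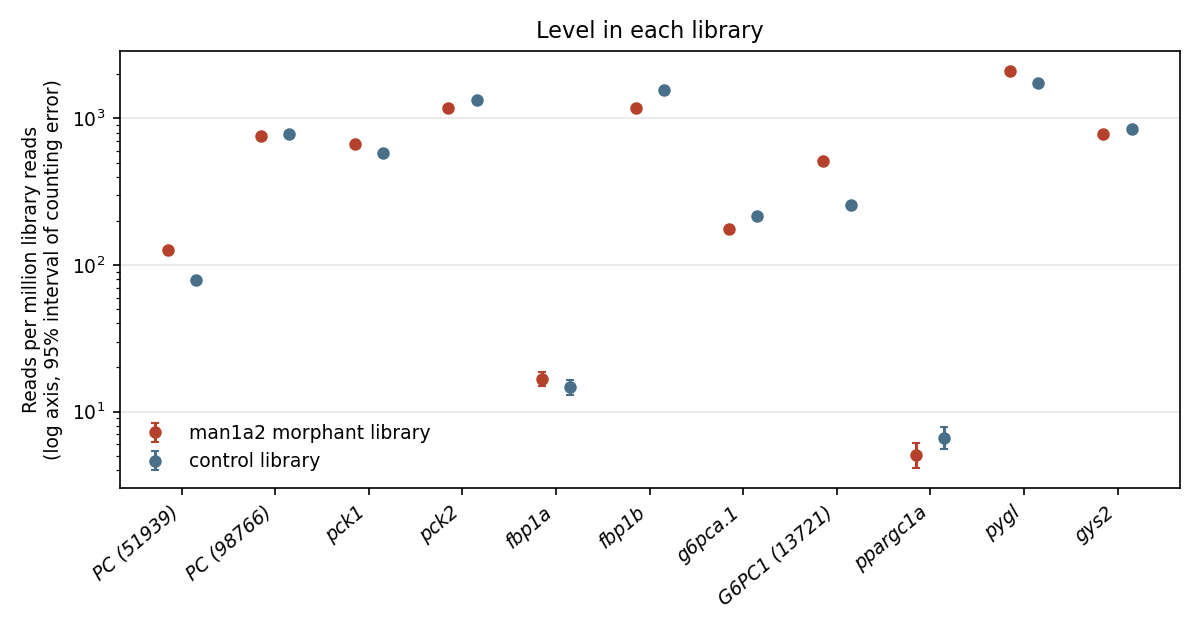
CPM (reads scaled to the library total, log axis) of the 8 genes and of the IDs under PC and G6PC1 with morphant reads, for the man1a2 morphant library (red) and the control library (blue), with 95% Clopper-Pearson intervals. The digits after PC and G6PC1 are the last of the ID. Levels run from 5.05 CPM (morphant) and 6.61 CPM (control) for ppargc1a to 2100 CPM (morphant) and 1739 CPM (control) for pygl, and since transcript length is not taken into account, heights are to be compared within a gene only.

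Pyruvate carboxylase, a mitochondrial enzyme, makes oxaloacetate from pyruvate and so opens the pathway. Its 2 IDs, for which pcxa and pcxb cannot be told apart here, moved differently. ENSDARG00000051939 had 2518 reads in the morphant library and 1561 in the control library, a rise with a log2 ratio of 0.58 (interval 0.49 to 0.67). The more abundant ENSDARG00000098766 had 14941 and 15339 reads in the morphant and control libraries (log2 ratio -0.15, interval -0.18 to -0.11) and was not past the read test. Summed over both IDs, reads were 17459 in the morphant library and 16900 in the control library, a log2 ratio of -0.06 (interval -0.09 to -0.03) that lay above 0 with total counts as the scaling (0.04). The smaller ID made up 14.4% of the summed reads in the morphant library (95% Clopper-Pearson interval 13.9% to 14.95%) and 9.24% in the control library (8.80% to 9.68%). A share of this kind does not depend on how the libraries are scaled.

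PEP carboxykinase turns oxaloacetate into PEP, in the cytosol as the product of pck1 and in mitochondria as that of pck2. The cytosolic form is the one that glucagon is known to induce in mammals. Its gene pck1 (ENSDARG00000013522) had 13318 reads in the morphant library and 11407 in the control library, 1.08-fold higher (log2 ratio 0.12, interval 0.08 to 0.15), short of the minimum fold. For pck2 (ENSDARG00000020956) the counts were 23393 in the morphant library and 26251 in the control library, a fall with a log2 ratio of -0.27 (interval -0.30 to -0.25). The fall of pck2 lay just past the minimum fold, and with total counts as the scaling its log2 ratio was -0.18, short of it. Since 1 gene was higher and the other lower, pck1 made up 36.3% of the reads of the pair in the morphant library (35.8% to 36.8%) and 30.3% in the control library (29.8% to 30.8%). Over the pair, the morphant library held 36711 reads and the control library 37658 (log2 ratio -0.14, interval -0.17 to -0.12).

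Fructose-1,6-bisphosphatase removes a phosphate from fructose-1,6-bisphosphate, against the step of phosphofructokinase. Nearly all its reads came from fbp1b (ENSDARG00000020364), which fell to 23339 reads in the morphant library, against 30606 in the control library. Its log2 ratio of -0.50 (interval -0.52 to -0.47) was the farthest below 0 of the 8 genes, at 0.708 of the control level. By contrast fbp1a (ENSDARG00000021366) had 329 reads in the morphant library and 289 in the control library, a log2 ratio of 0.08 (interval -0.15 to 0.31). No difference of fbp1a was detectable at this depth (adjusted p = 0.695, exact binomial test). The related gene FBP2, which in mammals encodes the muscle isozyme, had only 13 morphant and 7 control reads. At a coefficient of variation of 0.1 the adjusted p of fbp1b was 0.143 in edgeR's exact test.

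Glucose-6-phosphatase, in the membrane of the endoplasmic reticulum, releases free glucose and is the last step of both gluconeogenesis and glycogen breakdown. Here the IDs went in opposite directions. The gene g6pca.1 (ENSDARG00000031616) fell to 3505 reads in the morphant library, against 4265 in the control library (log2 ratio -0.39, interval -0.46 to -0.33). ENSDARG00000013721, 1 of the 2 IDs under G6PC1, rose to 10095 reads in the morphant library, against 5071 in the control library. That is 1.85-fold higher (log2 ratio 0.89, interval 0.84 to 0.93), the largest difference among the IDs of the 4 bypass steps. The name table does not say whether this ID is g6pca.2 or g6pcb, the other paralog that RefSeq lists. ENSDARG00000014967, the other ID under G6PC1, had 0 morphant and 2 control reads and was too low to compare.

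Together the G6PC1 IDs made up 74.2% of glucose-6-phosphatase reads in the morphant library (73.5% to 74.96%) and 54.3% in the control library (53.3% to 55.3%). In sum, glucose-6-phosphatase had 13600 reads in the morphant library and 9338 in the control library, a log2 ratio of 0.43 (interval 0.40 to 0.47). The sum was thus higher although g6pca.1 was lower. Near-identical paralogs can share reads, and how such reads were counted is not given in the sources used here, so the split between these IDs is uncertain. ENSDARG00000013721 was also past the threshold at a coefficient of variation of 0.1 (adjusted p = 0.000908, edgeR's exact test), but not at 0.2 (adjusted p = 0.602). The ubiquitous isozyme gene G6PC3 had 108 morphant and 103 control reads, with a log2 ratio of -0.04.

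**Figure D2:**
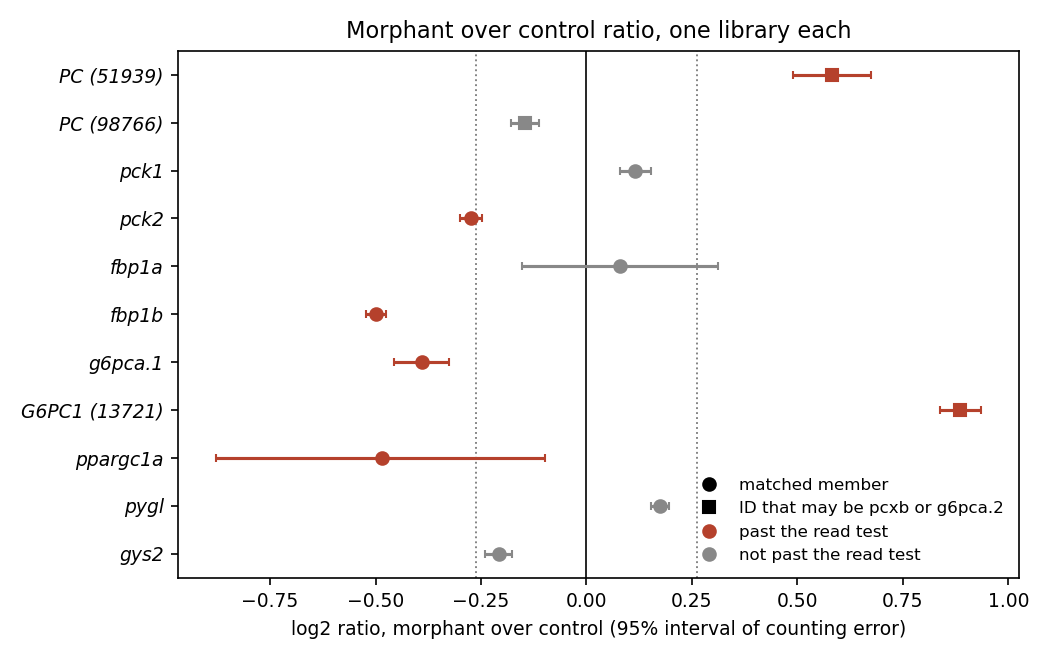
Log2 ratio of the morphant over the control library for the 8 genes (circles) and the IDs under PC and G6PC1 with morphant reads (squares), with 95% intervals of counting error. Dotted lines mark a 1.2-fold difference in either direction and red marks the IDs past the read test, which lie from -0.50 for fbp1b to 0.89 for ENSDARG00000013721.

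The coactivator gene ppargc1a, whose protein PGC-1 alpha is known in mammals to switch on gluconeogenic genes in fasting, had few reads. The morphant library held 100 and the control library 130, a log2 ratio of -0.48 (interval -0.88 to -0.10). It passed the read test narrowly (adjusted p = 0.0431, exact binomial test). The call was lost with total counts as the scaling (log2 ratio -0.39, adjusted p = 0.117) and with scaling to hepatocyte markers (adjusted p = 0.149, exact binomial test for both). Its paralog ppargc1b, with 651 morphant and 796 control reads, also fell (log2 ratio -0.40, interval -0.55 to -0.25), a gene chosen after its values were seen.

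Glycogen phosphorylase and synthase stood on opposite sides of 0, both within the 1.2-fold limit. The phosphorylase gene pygl (ENSDARG00000002197), which had the most reads of the 8, had 41547 in the morphant library and 34186 in the control library (1.13-fold, log2 ratio 0.17, interval 0.15 to 0.19). The synthase gene gys2 (ENSDARG00000004904) had 15595 reads in the morphant library and 16717 in the control library, a log2 ratio of -0.21 (interval -0.24 to -0.18). Of the reads of this pair, pygl made up 72.7% in the morphant library (72.3% to 73.1%) and 67.2% in the control library (66.7% to 67.6%). The change of their ratio, a log2 difference of 0.38 (interval 0.34 to 0.42), does not depend on the scaling. Under total counts and under scaling to hepatocyte markers pygl passed the read test, with log2 ratios of 0.27 and 0.30.

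Isozyme genes of other tissues were compared with the liver forms. GYS1, the muscle-type synthase, rose to 690 reads in the morphant library, against 354 in the control library (log2 ratio 0.85, interval 0.67 to 1.04), and reached 4.24% of synthase reads in the morphant library (3.93% to 4.56%), against 2.07% in the control library (1.87% to 2.30%). PYGM, the muscle phosphorylase, rose to 126 morphant reads, against 55 control reads (log2 ratio 1.08, interval 0.62 to 1.57), and its other ID had 1 morphant and 0 control reads. Skeletal muscle markers had 143 morphant and 78 control reads over 11 IDs (log2 ratio of the sums 0.77). Only 2 of these IDs had enough reads for the read test, and 0 were past it. The part of muscle RNA in the PYGM difference was not tested. PYGB, the brain phosphorylase, fell to 521 reads in the morphant library, against 610 in the control library (log2 ratio -0.33), a call lost under total counts.

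The other genes of glycogen turnover were split, with 6 of 34 tested IDs past the read test and higher, 7 past it and lower, against 12.5% higher and 12.6% lower of all genes tested, and a median log2 ratio of -0.02. UGP2 (ENSDARG00000005578), which makes the UDP-glucose that synthase uses, fell to 5025 reads in the morphant library, against 10008 in the control library (log2 ratio -1.10, interval -1.15 to -1.05). It was past the threshold at a coefficient of variation of 0.1 and under the blind dispersion (adjusted p = 9.52e-06 and 0.0455, edgeR's exact test). In the same test it was not past it at 0.2 (adjusted p = 0.268) or 0.4. The other UGP2 ID, ENSDARG00000008200, chosen after its values were seen, had 390 morphant and 334 control reads (log2 ratio 0.12) and was not past the read test. PHKA2, the liver regulatory subunit of the kinase that activates phosphorylase, fell to 661 reads in the morphant library, against 1127 in the control library (log2 ratio -0.88, interval -1.02 to -0.74). The gene stbd1, for a protein that tethers glycogen to membranes, had a log2 ratio of -0.53, with 1475 morphant and 1977 control reads. Among the higher genes gsk3bb, a paralog of a kinase that inhibits synthase, had only 15 morphant and 3 control reads (log2 ratio 2.05, interval 0.39 to 4.64). Under total counts the median of this list was 0.08, with 7 IDs higher and 4 lower. Of all genes, 20% were higher and 8.89% lower under that scaling, with a median of 0.11.

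**Figure D3:**
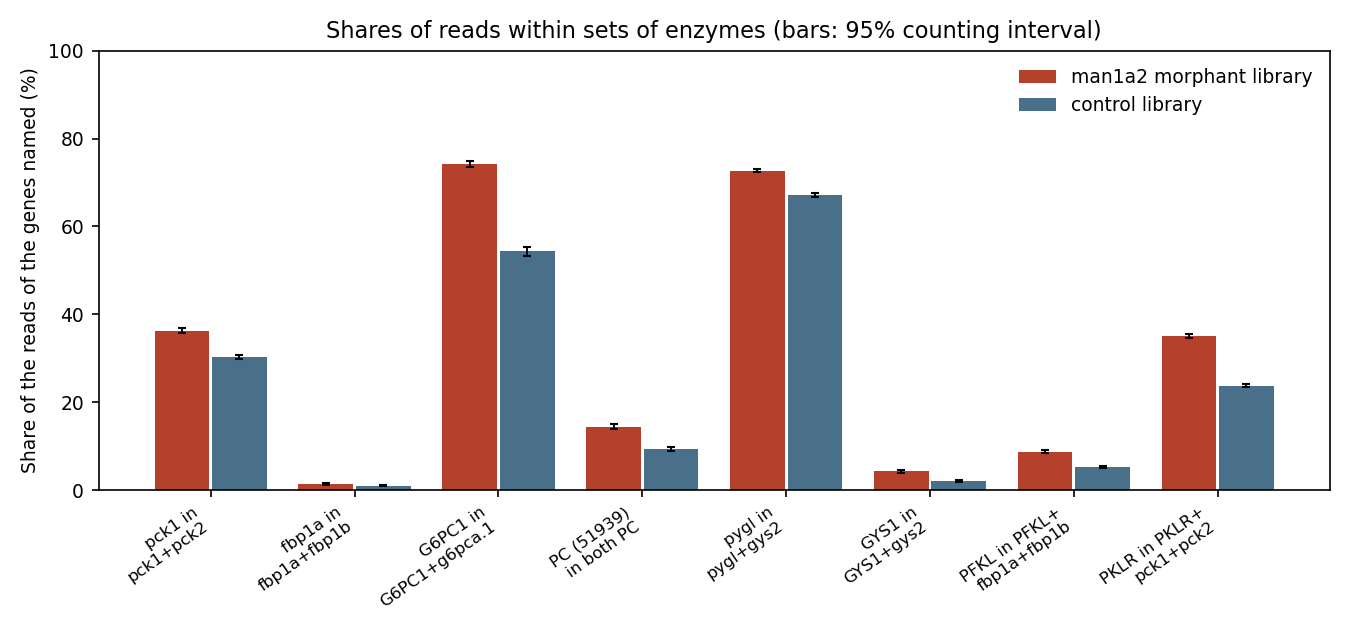
Share of reads (percent) within sets of enzymes in the man1a2 morphant library (red, left) and the control library (blue, right), with 95% Clopper-Pearson intervals. The direction of a difference depends on which gene of a set is named first, and for the G6PC1 IDs the shares are 74.2% in the morphant library against 54.3% in the control library.

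A list of enzymes at the irreversible steps of glycolysis, of enzymes that regulate those steps and of pyruvate dehydrogenase and its kinases, in which FBP2 is also counted, had a median log2 ratio of 0.29. Of its 21 tested IDs, 7 were past the read test and higher, against 12.5% of all genes tested, and 1, against 12.6%, was lower. The lower one was PDK1, a kinase that inhibits pyruvate dehydrogenase (67 morphant and 100 control reads). PKLR, the pyruvate kinase of liver, rose to 19778 reads in the morphant library, against 11715 in the control library (log2 ratio 0.65, interval 0.61 to 0.68). PFKFB3, which makes the signal that activates phosphofructokinase and inhibits fructose-1,6-bisphosphatase, rose to 53 morphant reads, against 12 control reads (log2 ratio 1.99, interval 1.11 to 3.08). Its paralogs, chosen after their values were seen, were mixed. PFKFB4 was past the read test and higher (241 morphant and 144 control reads, log2 ratio 0.63). The most abundant, pfkfb1, was not past it (330 morphant and 365 control reads, -0.25). Also below 0 and not past it were pfkfb4a, pfkfb2a and PFKFB2. The PFKL IDs of liver phosphofructokinase held 2261 reads in the morphant library and 1704 in the control library in sum (log2 ratio 0.30, interval 0.21 to 0.39).

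Phosphofructokinase was then set against its bypass enzyme within a library. Pyruvate kinase was set against PEP carboxykinase only, without pyruvate carboxylase, the other enzyme of its bypass. PFKL took 8.72% of its reads and those of fbp1a and fbp1b in the morphant library (8.38% to 9.07%) and 5.23% in the control library (4.99% to 5.47%). PKLR took 35.01% of its reads and those of pck1 and pck2 in the morphant library (34.6% to 35.4%) and 23.7% in the control library (23.4% to 24.1%). In both comparisons reads of the glycolytic enzyme were thus higher relative to those of the enzyme set against it, by 0.79 in log2 each. For PFKL this came with a lower bisphosphatase, and for PKLR with a PEP carboxykinase level that differed little (-0.14).

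**Figure D4:**
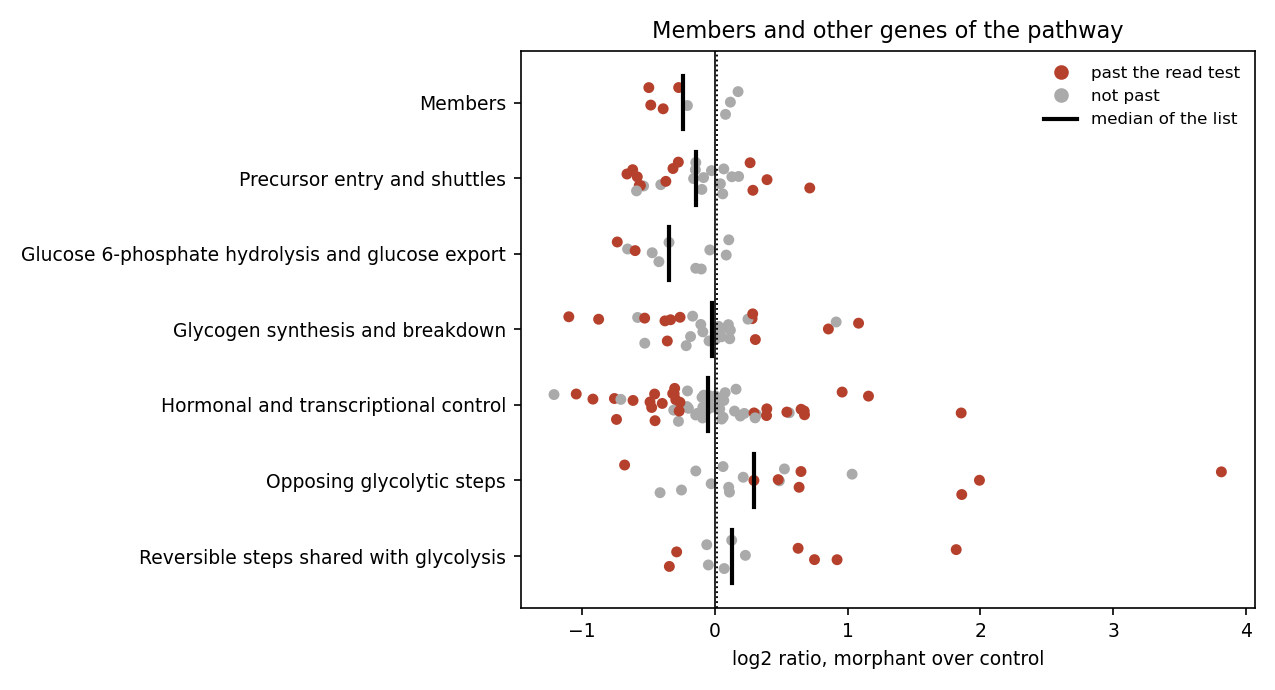
Log2 ratio of the morphant over the control library for the 8 genes and for 6 lists of other genes of the pathway, each point 1 ID whose normalized count averaged 10 or higher, red where past the read test. Black bars are medians, from -0.35 for glucose-6-phosphate hydrolysis and glucose export to 0.29 for the opposing glycolytic steps, and the dotted line is the median of all genes (0.014).

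Genes that supply carbon and reducing power to the pathway had a median log2 ratio of -0.15, with 4 of 26 tested IDs past the read test and higher and 8 lower, against 12.5% and 12.6% of all genes. Under total counts 5 were higher and 6 lower (median -0.05), against 20% and 8.89% of all genes (median 0.11). Under scaling to hepatocyte markers 5 were higher and 5 lower (median -0.02), against 22.3% and 8.07% of all genes (median 0.14). AGXT (ENSDARG00000018478), a liver transaminase that makes glycine from glyoxylate, fell to 58983 reads in the morphant library, against 86701 in the control library (log2 ratio -0.66, interval -0.68 to -0.65). The aspartate aminotransferases GOT1 and GOT2, of the malate-aspartate shuttle, fell to 5326 and 6889 morphant reads, against 7599 and 9596 control reads (log2 ratios -0.62 and -0.59). The paralog got2b, chosen after its values were seen, was not past the test, with 5949 morphant and 5368 control reads (0.04). TAT, tyrosine aminotransferase, was among those that rose, to 4030 reads in the morphant library against 2280 in the control library (log2 ratio 0.71, interval 0.64 to 0.79). LDHB, a lactate dehydrogenase, and SLC25A11, the oxoglutarate carrier of the shuttle, rose by less, with log2 ratios of 0.29 and 0.26. The LDHB paralog ldhbb, chosen after its values were seen, fell to 3749 morphant reads, against 4498 control reads (-0.37). The call of SLC25A11 was lost with TMM (0.25) and upper-quartile factors (0.24), and that of LDHB with upper-quartile factors (0.26).

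A list of glucose carriers, of transporters that bring glucose-6-phosphate to its phosphatase, and of the phosphatase gene G6PC3 had 13 tested IDs. Of these, 2 were past the read test and lower and 0 higher, against 12.6% and 12.5% of all genes. At an unadjusted p under 0.05 in the same binomial test, 3 IDs were lower and 1 higher. The share of all genes at that threshold was not computed, so these counts have no baseline. SLC37A4, the glucose-6-phosphate transporter of the endoplasmic reticulum, had 8414 morphant and 7267 control reads (log2 ratio 0.10), and SLC2A2, the glucose carrier of hepatocytes, had 7507 morphant and 7705 control reads (-0.15). Those lower were SLC2A8 (134 morphant and 189 control reads, log2 ratio -0.60) and 1 ID under SLC2A1 (47 morphant and 73 control reads, log2 ratio -0.74), the second of which was not past the test under total counts.

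Among the enzymes that run in both directions, 4 of 13 tested IDs were past the read test and higher and 2 lower, against 12.5% and 12.6% of all genes. Those that rose included ENO1, an enolase (log2 ratio 1.82), GAPDHS, a glyceraldehyde-3-phosphate dehydrogenase (0.92), and ALDOA, the muscle aldolase (0.63). The gene pgam1b, a phosphoglycerate mutase, fell to 462 reads in the morphant library, against 524 in the control library (log2 ratio -0.29). Neither of the 2 lower calls held with total counts as the scaling.

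A list of receptors, transcription factors and kinases that control the pathway, and of other genes linked to it such as IGFBP1, was mixed. Its median log2 ratio was -0.05. Of its 60 tested IDs, 10 were past the read test and higher and 16 lower, against 12.5% and 12.6% of all genes. Under total counts 10 were higher and 9 lower (median 0.04), against 20% and 8.89% of all genes (median 0.11). Under scaling to hepatocyte markers 12 were higher and 8 lower (median 0.07), against 22.3% and 8.07% of all genes (median 0.14). Under INSR, the insulin receptor, ENSDARG00000011948 had 767 morphant and 822 control reads (log2 ratio -0.21) and was not past the read test. The other INSR ID, ENSDARG00000071524, fell to 220 reads in the morphant library, against 422 in the control library (log2 ratio -1.05, interval -1.29 to -0.81). The 2 glucagon receptor genes, chosen after their values were seen, fell as well, with 927 morphant and 1177 control reads for gcgra (log2 ratio -0.45) and 55 morphant and 97 control reads for gcgrb (-0.92). The gene creb3l3a, for a liver transcription factor of metabolic genes, fell to 226 morphant reads, against 355 control reads (log2 ratio -0.76). Its paralog creb3l3b, chosen after its values were seen, rose to 450 morphant reads, against 319 control reads (0.39). IGFBP1 (ENSDARG00000099351), which insulin represses in mammals, rose to 13493 reads in the morphant library, against 7847 in the control library (log2 ratio 0.67, interval 0.63 to 0.71). SIK1, a kinase that holds back the CREB coactivators of gluconeogenesis, rose to 493 morphant reads, against 205 control reads (1.16). NR0B2, a nuclear receptor that represses metabolic genes in liver, rose to 91 morphant reads, against 23 control reads (1.85). NR0B2 was past the threshold at a coefficient of variation of 0.2 (adjusted p = 0.0364, edgeR's exact test), but not at 0.4 or under the blind dispersion. At 0.2, SIK1 (adjusted p = 0.258) and ENSDARG00000071524 under INSR (0.406) were not past it in the same test.

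**Figure D5:**
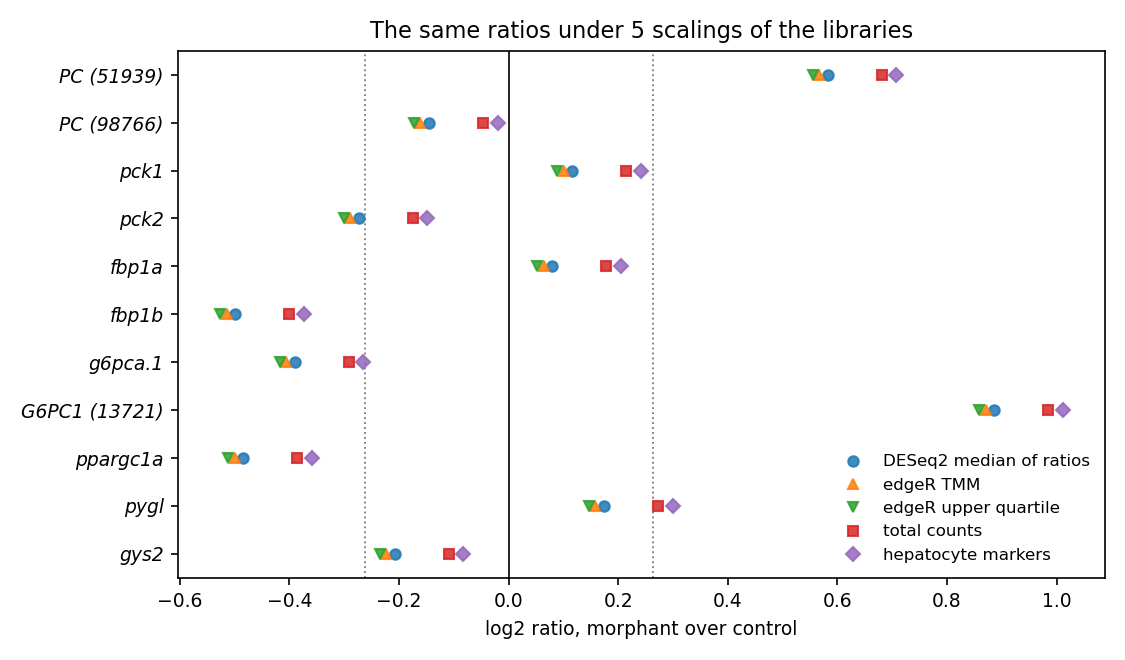
Log2 ratio of the morphant over the control library for the 8 genes and the IDs under PC and G6PC1 with morphant reads, under 5 scalings of the libraries. Total counts and scaling to hepatocyte markers move every ratio up, by 0.098 and 0.125 where reads are many. Each ID kept its side of 0, while pck2 and pygl crossed the dotted 1.2-fold lines.

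The size of the differences depended on the scaling. Total counts moved log2 ratios up by 0.098 and scaling to 21 hepatocyte marker IDs by 0.125. Under these scalings fbp1b (log2 ratios -0.40 and -0.37) and g6pca.1 (-0.29 and -0.27) remained lower and past the read test, pck2 and ppargc1a did not pass it, and pygl passed it as higher. The 3 of 8 past the test stood against 28.9% of all genes under total counts (20% higher, 8.89% lower) and 30.3% under scaling to hepatocyte markers (22.3% higher, 8.07% lower). The edgeR factors gave 4 of 8, all lower, against 25.1% of all genes with TMM (11.9% higher, 13.2% lower) and 25.2% with the upper quartile (11.3% higher, 13.9% lower). Every one of the 8 genes kept its side of 0 under the 5 scalings. Cell types other than hepatocytes that use these genes were looked for through their markers. Enterocyte markers had 46025 morphant and 66035 control reads over 11 IDs, nearly all from apoa4b.1 (43099 morphant and 63276 control reads, past the test and lower). Of the others apoa4a was past the test and higher (111 morphant and 3 control reads), 1 ID under ANPEP was past it and lower (98 morphant and 144 control reads), FABP2 was not past it (2550 morphant and 2415 control reads), and VIL1, chia.1, FABP6 and 1 ID under SLC15A1 were at 0 in both libraries. Pronephros markers had 3333 morphant and 3344 control reads over 12 IDs, with SLC12A3 and NPHS1 among those at 0 in both. Islet markers were near 0, with 15 morphant and 2 control reads for the glucagon gene gcga and 3 morphant and 0 control reads for ins.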

How the data were processed

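RNA of pooled 5-day zebrafish livers was sequenced in 1 man1a2 morphant and 1 control library (poly-A selected, strand-specific). The authors deposited raw counts, the whole number of reads per Ensembl gene, without normalization. The submitters' processing notes list GRCz10, FastQC and DESeq2, and the aligner and counter are not given in the sources used here. The name table paired 26121 of 31953 IDs with a symbol, and RefSeq's GRCz12tu table was used for synonyms only. No sequence of these genes was used here.

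Counts were scaled by the median-of-ratios factors of DESeq2 1.42.0 in R 4.3.3. A log2 ratio is morphant over control with a pseudocount of 0.5, and 95% Clopper-Pearson intervals carry none. Summed reads and shares carry no pseudocount. The exact binomial test was 2-sided, by 2 times the smaller tail. With 1 library per group, edgeR's quasi-likelihood test cannot be fitted. Thresholds are those of the study. Alternatives were other scalings, read filters, minimum folds, a pseudocount of 5, and the exact test of edgeR 4.0.16 with assumed or blind dispersions. Intervals of a change in a ratio of 2 read sums are normal approximations on the log scale.

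The symbols, lists and tests were chosen with earlier results of these data known. All 8 matched genes are named, with their isozymes and, per list, up to 3 genes in each direction past the test, ranked by the interval bound nearest 0. A few others are marked as chosen after their values were seen. Some genes that this rule selects are not reported here.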

Additional observations from a re-analysis of the deposited data

How the results depend on the processing

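No paired analysis was possible because only 1 morphant and 1 control library were analysed, and for the same reason no library could be left out. In all, 3956 genes passed the read test, and 3371 to 4978 did so with another scaling, read filter or 2-sided p or without a minimum fold. It was 988 with a minimum fold of 2, and in edgeR's exact test 1002, 220 and 43 at a coefficient of variation of 0.1, 0.2 and 0.4, and 117 under the blind dispersion. Of the 8 genes, 4 were past the read test, 7 with no minimum fold (against 4978 of all genes) and 0 with a minimum fold of 2. At a coefficient of variation of 0.1, 0.2 or 0.4 or the blind dispersion the number was 0, beside 1, 0, 0 and 0 genes at an unadjusted p under 0.05 in edgeR's exact test. The share of all genes at that unadjusted p was not computed, so these unadjusted counts have no baseline. Filters and scalings left 3 or 4 of the 8 past the read test. At least 1 read as the filter, which adds genes to the adjustment, left ppargc1a out.

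The median log2 ratio of the 8, -0.24, was -0.14 under total counts, -0.12 under scaling to hepatocyte markers and -0.15 with the PC and G6PC1 IDs included. The median of all genes, 0.014, moved up with the scaling too, to 0.11 under total counts and 0.14 under scaling to hepatocyte markers. The median of the 8 thus stayed below that of all genes by a similar margin under these scalings. The summed pyruvate carboxylase ratio of -0.06 changed sign, to 0.038 under total counts and 0.065 under scaling to hepatocyte markers. The share of higher calls among all genes was 49.9%, 69.2% under total counts and 73.4% under scaling to hepatocyte markers. Some alternatives were added after the data were seen: the named genes and lists under other scalings and variation, the summed steps, the PC and G6PC1 IDs, and the other 2-sided p. The depth limits fbp1a and ppargc1a most, with intervals wider than 0.4 on the log2 scale.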

Other observations

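Ranked by the interval bound nearest 0 among genes higher in the morphant library, ENSDARG00000013721 under G6PC1 stood at place 224 of the 15732 genes tested. The IDs under AGXT differed from each other, with 58983 morphant and 86701 control reads for ENSDARG00000018478 and 21542 morphant and 19097 control reads for the other (log2 ratio 0.07).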
